A study of Homo sapiens with 20 samples.

Results

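Endoplasmic reticulum (ER) chaperones and the sensors of unfolded protein were examined as a set of 10 genes, HSPA5, HSP90B1, HYOU1, DNAJB9, CALR, PDIA3, PDIA4, XBP1, ATF6 and ERN1. They were taken by gene symbol from the 20 count files, each of which lists 50775 features. All 10 were listed, and all 10 were among the 16698 genes with enough counts to test. The libraries came from 5 established human cancer cell lines, in a study that asked how inhibiting the MTOR kinase alters the expression of DNA repair genes. Each line was left untreated or exposed for 72 h to torkinib (PP242), an ATP-competitive inhibitor of MTOR, with 2 libraries per group. The dose was 10 µM in 94T778, a well-differentiated liposarcoma line, and 4 µM in the melanoma lines A375 and SKMEL28. It was 4 µM in the breast cancer line AU565 and 0.8 µM in the breast cancer line SKBR3. No time in culture is given for the untreated libraries, no vehicle is named for them, and per the labels the growth medium differed between lines. Doses were set line by line so that the cells stopped cycling and stayed viable, so lines outside A375, SKMEL28 and AU565 differ from each other in dose as well as in origin. SKBR3 and AU565 derive from tumour cells of the same donor and are not independent examples of their tumour type. The labels do not say whether the replicates were separate cultures; p-values reflect only how far these libraries scatter, and that scatter can be technical.

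Proteins that enter the ER are folded there by chaperones, cross-linked by disulfide isomerases and checked by lectin chaperones before they leave. When unfolded protein builds up, 3 membrane sensors respond: ERN1 (IRE1 alpha), ATF6 and EIF2AK3 (PERK). ERN1 splices the XBP1 messenger RNA so that it encodes an active transcription factor, and ATF6 is cut in the Golgi so that its cytosolic part can enter the nucleus. Both factors raise transcription of ER chaperone genes through short promoter elements, and EIF2AK3 slows translation and favours that of ATF4. In secretory and luminal epithelial cells XBP1 is abundant, and MTOR activity sets the load of new protein that the ER receives. Counts per gene show neither the splicing of XBP1, nor the cleavage of ATF6, nor the kinase activity of ERN1.

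Promoter sequence is shown for the 5 members with an ER stress response element near their start. The form in HYOU1 differed from that in HSPA5, HSP90B1, CALR and XBP1, so no full element was common to all 5. The windows run from 250 bases before to 50 after the annotated start, 300 bases each, from RefSeq on GRCh38.p14. The count files carry no coordinates, and the build named for their alignment is hg19 (GRCh37). The table held 11 windows for 9 of the 10 members; PDIA3 was not among them. Both strands were searched for exact matches to the letters given below, N being any base, so imperfect copies are not counted. Positions count from the annotated start, with -1 the base before it. The first element, ERSE (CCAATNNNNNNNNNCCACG), is bound by NF-Y and ATF6 and occurred in 27 of all 35116 windows (0.0769%). ERSE-II (ATTGGNCCACG) occurred in 19 windows (0.0541%) and UPRE (TGACGTGG), an element known to be bound by XBP1 and ATF6, in 256 (0.729%). Capitals mark the matches; a match on the other strand reads as the reverse complement.
HSPA5 promoter, chr9:125241344-125241459, minus strand: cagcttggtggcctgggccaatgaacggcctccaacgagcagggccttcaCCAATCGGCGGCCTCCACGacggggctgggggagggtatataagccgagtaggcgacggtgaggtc
HSP90B1 promoter, chr12:103930196-103930359, plus strand: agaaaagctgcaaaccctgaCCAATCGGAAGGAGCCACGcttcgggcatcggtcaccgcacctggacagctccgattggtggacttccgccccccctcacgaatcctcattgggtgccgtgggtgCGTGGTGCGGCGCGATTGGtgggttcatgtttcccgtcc
CALR promoter, chr19:12938364-12938422, plus strand: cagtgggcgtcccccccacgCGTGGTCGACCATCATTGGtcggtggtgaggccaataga
XBP1 promoter, chr22:28800583-28800641, minus strand: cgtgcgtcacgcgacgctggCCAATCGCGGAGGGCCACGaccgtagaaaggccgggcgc
HYOU1 promoter, chr11:119057254-119057413, minus strand: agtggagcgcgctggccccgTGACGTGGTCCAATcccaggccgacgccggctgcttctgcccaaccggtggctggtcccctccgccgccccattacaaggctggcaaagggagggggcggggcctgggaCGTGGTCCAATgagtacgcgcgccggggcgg

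HSPA5 held 1 ERSE, at -66 to -48 on the strand of the gene. HSP90B1 held 2, at -194 to -176 on its own strand and at -89 to -71 on the other. CALR held 1 on the other strand, at -225 to -207. XBP1 held 1 on its own strand, at -52 to -34, in 1 of its 2 windows. HYOU1 held 2 ERSE-II elements on the other strand, at -185 to -175 and at -79 to -69, and the first overlapped a UPRE at -188 to -181. These letters were not found in the windows of PDIA4, ATF6, ERN1 and DNAJB9, and the cyclic AMP element (TGACGTCA), present in 1.85% of all windows, was in none of the members' windows. The bare CCACG lay in 38.1% of all windows, so the full elements are the rarer feature.

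**Figure D1:**
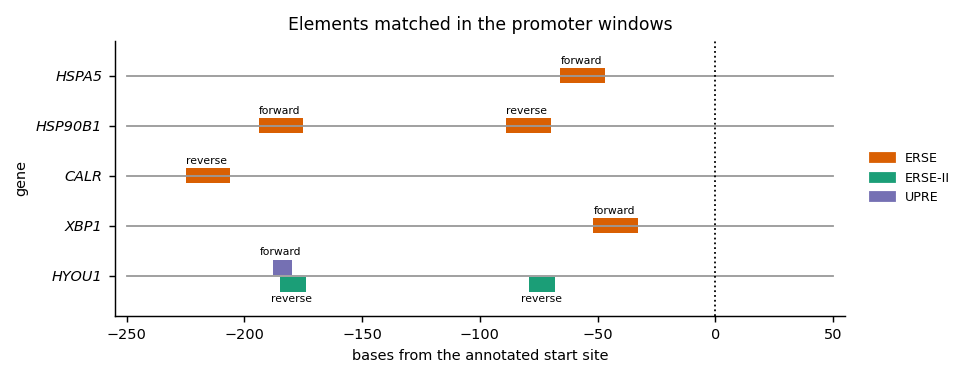
Positions of the full elements in the promoter windows of the 5 members that hold one. The x axis is the distance from the annotated start in bases, colours give the element, and the labels forward and reverse give the strand relative to the gene; HSP90B1 and HYOU1 are the members with more than 1 element.

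Library totals ran from 4040023 to 9737903 counts, and 47.8 to 62.4% of reads were counted in a gene. The lines carried the markers of their labelled origin, A375 those of melanocytes at a low level. The 12q amplicon genes summed to 10757 to 12153 CPM in 94T778 (counts per library total, scaled to CPM without further factors, for all marker sums) and to at most 1010.4 CPM in the other lines, and the luminal and HER2 breast genes to 12434 to 24033 CPM in SKBR3 and AU565 and at most 519 elsewhere, with CDH1 at 0 in untreated SKBR3 and AU565. Melanocyte genes summed to 7612 to 11559 CPM in SKMEL28 and to 629 to 712 CPM in A375. Blood markers stayed at 18.8 CPM or less. Some marker sums moved with treatment. The breast genes summed to 22993 to 24033 CPM in untreated SKBR3 and 15244 to 15309 with torkinib, and in AU565 to 18033 to 18045 untreated and 12434 to 13034 treated, the lines with the larger falls of XBP1, CALR and PDIA3. The sum of 3 endothelial genes was 16.7 to 21.0 CPM in untreated SKBR3 and 148 to 157 with torkinib, and in AU565 28.6 to 29.2 untreated and 78.7 to 80.8 treated, and it was at most 7.22 CPM in the other lines. Melanocyte genes in SKMEL28 stood at 7612 to 7980 CPM untreated and 11365 to 11559 treated. The part of these shifts in the results below was not tested. The pair of untreated SKBR3 libraries stood apart, with a chi-square per gene of 11.1 against 1.34 to 3.15 in the other 9 groups, and with 7.63 and 4.44% of counts in mitochondrially encoded genes. Genes particular to 94T778 had counts in A375 untreated replicate 1 at a median of 1.84% of their level, against 0.185% in replicate 2, and genes of SKMEL28 had counts in SKBR3 untreated replicate 2 at 0.327%. Genes of A375, 6 in number, had counts in SKMEL28 untreated replicate 2 at 0.327%, against 0 in replicate 1. Without A375 untreated replicate 1, 6 members were called in A375 in place of 7, and without either untreated SKBR3 library all 10 were called in SKBR3.

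The chaperone side of the set was lower with torkinib, and ATF6, ERN1 and DNAJB9 were mostly higher. Averaged over the 5 lines, HSPA5, HSP90B1, HYOU1, CALR, PDIA3, PDIA4 and XBP1 fell and ATF6, ERN1 and DNAJB9 rose. A gene was called when edgeR's quasi-likelihood test gave an adjusted p under 0.05 over all 16698 genes. On the average 7 of 10 members were called lower, beside 28.1% of all genes, and 3 higher, beside 28.4%. The same split of 7 lower and 3 higher was seen in 94T778, where 23.8% of genes were called in each direction, and in SKBR3, where 26.7% were lower and 24.6% higher. In SKMEL28 7 members were lower (23.7% of genes) and 2 higher (20.4%), and in AU565 7 were lower (28.6%) and 2 higher (26.9%). In A375 6 were lower (24.3%) and 1 higher (18.5%).

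HSPA5, HSP90B1, HYOU1 and PDIA4 were called lower in all 5 lines, which 4.62% of genes were; no member was called higher in all 5, as 2.26% of genes were. ATF6 was called higher in 3 lines and lower in 2, and 24% of genes were called in both directions somewhere. The untreated and torkinib libraries of a line did not overlap for any member in any line, while the same held for 27% of genes. The summed level of the 10 members, in CPM normalised by the TMM factors as all levels below, went from 3620 to 7343 CPM in untreated libraries to 3011 to 4448 with torkinib. Counts are shares of a library, so fewer transcripts per cell and a larger share of other transcripts cannot be told apart.

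**Figure D2:**
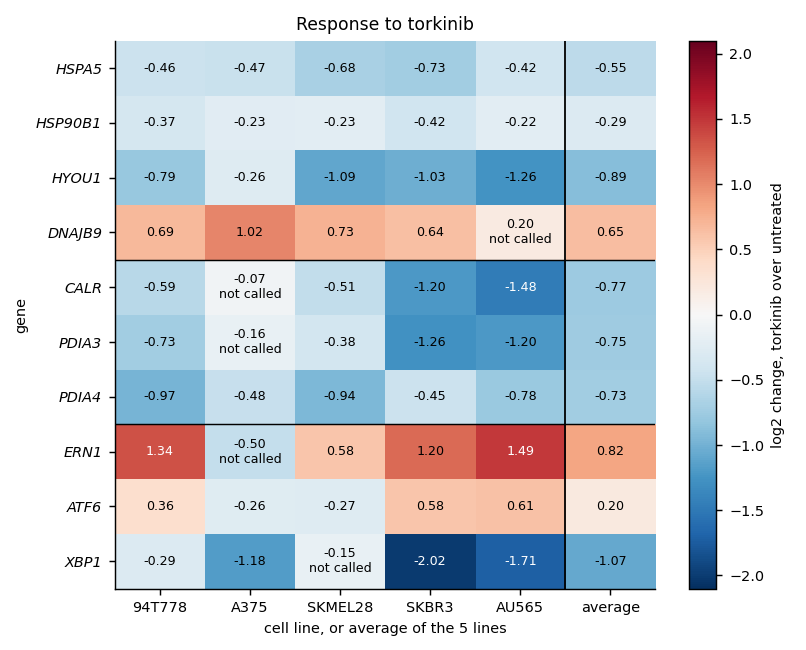
Log2 change with torkinib for each member in each line and on the average, torkinib minus untreated, with the value printed in each cell and calls marked. The rows of HSPA5, HSP90B1, PDIA4 and HYOU1 are lower and called in all 5 lines, and the row of ATF6 holds both directions.

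HSPA5 (BiP), the ATP-driven chaperone of the ER lumen that also holds the sensors inactive, was 1.46-fold lower on the average (-0.55 on the log2 scale, SE 0.03, edgeR adjusted p = 1.29e-17). In SKBR3 its libraries held 1190.3 and 1213 CPM untreated and 693 and 752 with torkinib, a log2 change of -0.73 (SE 0.07, edgeR adjusted p = 4.04e-11). In SKMEL28 the values were 883 and 910.2 untreated and 571 and 551 treated, a change of -0.68. SKBR3 and SKMEL28 had the larger falls, and every untreated library of a line lay above both of its treated ones. 94T778 went from 1149 and 1160.5 CPM to 872 and 811, a change of -0.46 (edgeR adjusted p = 1.24e-06). A375 went from 844 and 805 to 600.1 and 592 CPM (-0.47) and AU565 from 1158 and 1206 to 892 and 879 (-0.42). With torkinib the SKMEL28 libraries were the lowest of the 20 and those of AU565 the highest of the treated.

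HSP90B1 (GRP94), the ER member of the HSP90 family that folds integrins and Toll-like receptors, had the smallest average change of the members that fell, -0.29 (SE 0.03, edgeR adjusted p = 5.90e-10). AU565 held 1967 and 2019 CPM untreated and 1731 and 1688 with torkinib (-0.22, edgeR adjusted p = 0.00921). SKMEL28 held 1661 and 1737 untreated and 1480.3 and 1423 treated (-0.23, edgeR adjusted p = 0.0100). These are shifts of about 1.17-fold, and the groups still did not overlap. A375 went from 1149 and 1100.5 to 957 and 959 CPM (-0.23, edgeR adjusted p = 0.00977). 94T778 went from 1464 and 1479.9 to 1193 and 1090.0 (-0.37) and SKBR3 from 1582 and 1736 to 1211 and 1264.5 (-0.42), the largest fall. The calls in the 3 lines given 4 µM rested on single libraries: without A375 untreated replicate 1 the edgeR adjusted p in A375 was 0.0751, and without A375 torkinib replicate 1 it was 0.0552; with library totals in place of the TMM factors it was 0.0662. In SKMEL28 it was 0.104 without untreated replicate 2 and 0.102 without torkinib replicate 2, and in AU565 0.0576 without torkinib replicate 2.

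HYOU1 (GRP170), a large HSP70 relative that exchanges nucleotide on HSPA5, had larger log2 changes than HSPA5 in each line but A375. AU565 went from 609.8 and 546 CPM to 235 and 248, 2.39-fold lower (log2 change -1.26, SE 0.08, edgeR adjusted p = 2.86e-16). SKMEL28 went from 186 and 176 to 86.9 and 82.1 (-1.09, edgeR adjusted p = 2.34e-13). SKBR3, with untreated libraries further apart than the treated, went from 276 and 326 to 145 and 150.4 (-1.03). The 3 lines thus lost more than a log2 unit each. 94T778 went from 191 and 197 to 112 and 112 (-0.79), and A375 from 284 and 296 to 243 and 241 (-0.26, edgeR adjusted p = 0.00677). On the average HYOU1 changed by -0.89 (SE 0.04, edgeR adjusted p = 5.28e-22). The call in A375 was lost without untreated replicate 2 (edgeR adjusted p = 0.0647).

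DNAJB9 (ERdj4), a DnaJ cofactor that brings HSPA5 to ERN1 and is a textbook target of spliced XBP1, moved against the other chaperones. A375 went from 15.02 and 18.1 CPM to 34.2 and 33.3, 2.03-fold higher (log2 change 1.02, SE 0.17, edgeR adjusted p = 6.63e-06). SKMEL28 went from 31.8 and 30.9 to 51.5 and 52.5 (0.73, edgeR adjusted p = 5.25e-05). 94T778 went from 17.4 and 17.3 to 30.7 and 25.2 (0.69). DNAJB9 rose in these 3 lines and in SKBR3, where the untreated libraries were 29.01 and 52.3 CPM and the treated 58.9 and 69.5 (0.64, edgeR adjusted p = 0.000194). Those untreated SKBR3 libraries, the pair that stood apart, set the size there: the change was 0.29 without replicate 1 and 1.15 without replicate 2, called in both. In AU565, 101 and 102 CPM untreated and 120.4 and 113 treated gave 0.20 (SE 0.11), which was not called (edgeR adjusted p = 0.145). The average was 0.65 (SE 0.07, edgeR adjusted p = 1.02e-10). Exons of DNAJB9 overlap those of THAP5 on the other strand in GENCODE 29 (GRCh38), and the strand setting of the counting is not given in the sources used here. THAP5 itself changed by 0.74 in 94T778, 0.30 in A375, -0.17 in SKMEL28 (not called), 0.84 in SKBR3 and 0.89 in AU565, and reads of the overlap cannot be told apart. Exons of PDIA3 overlap ELL3 in the same way, which held 0 to 61 counts per library. GENCODE 29 also gives opposite-strand overlaps for PDIA3 (AC018512.1 and CATSPER2P1), CALR (AC092069.1) and HYOU1 (AP003392.3). For HSP90B1 it gives an overlap on the same strand (MIR3652). Counts of these further overlapping genes were not examined. The pseudogene XBP1P1 held 0 to 5 counts in a library.

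CALR (calreticulin), the soluble lectin that holds new glycoproteins and buffers ER calcium, showed the widest split between lines of the folding genes. AU565 went from 565 and 601 CPM to 202 and 216, 2.78-fold lower (log2 change -1.48, SE 0.07, edgeR adjusted p = 3.78e-19). SKBR3 went from 830.2 and 861 to 362 and 374 (-1.20, edgeR adjusted p = 8.20e-17). The pair of breast lines lost well over a log2 unit each. 94T778 went from 1053 and 1045 to 714 and 682 (-0.59) and SKMEL28 from 941 and 932 to 661 and 654 (-0.51). A375 held 568 and 560.3 CPM untreated and 532 and 541 treated, a change of -0.07 (SE 0.07) that was not called (edgeR adjusted p = 0.424). Among the 10 members only XBP1 had a larger fall in AU565. The average was -0.77 (SE 0.03, edgeR adjusted p = 3.69e-22).

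PDIA3 (ERp57), the disulfide isomerase that works with calreticulin on glycoproteins, followed CALR closely. SKBR3 went from 1394 and 1381 CPM to 585 and 570.0 (log2 change -1.26, SE 0.07, edgeR adjusted p = 1.44e-17). AU565 went from 1090.3 and 1165 to 500.2 and 481 (-1.20, edgeR adjusted p = 5.46e-17). 94T778 went from 659 and 653 to 412 and 379.8 (-0.73). The falls in the breast lines were 2.40-fold and 2.30-fold, the larger ones again. SKMEL28 went from 674 and 669 to 520.4 and 513 (-0.38, edgeR adjusted p = 2.51e-05). A375, with 394 and 382 CPM untreated and 345 and 349.9 treated, changed by -0.16 and was not called (edgeR adjusted p = 0.0720). DESeq2 (adjusted p = 0.0437) and limma-voom (adjusted p = 0.0279) did call it there. Over the 5 lines the average was -0.75 (SE 0.03, edgeR adjusted p = 1.14e-21).

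PDIA4 (ERp72), a disulfide isomerase of the HSPA5 complex, fell in all 5 lines. In 94T778 it went from 148 and 150.3 CPM to 79.1 and 73.1, 1.96-fold lower (log2 change -0.97, SE 0.08, edgeR adjusted p = 2.67e-12). In SKMEL28 it went from 395 and 412 to 217 and 203 (-0.94) and in AU565 from 367 and 354 to 204 and 215 (-0.78). The order of the lines differed from that of CALR and PDIA3, with SKBR3 among the smaller falls. SKBR3 went from 210.4 and 235 to 159 and 168 (-0.45, edgeR adjusted p = 7.91e-06) and A375 from 179 and 184 to 131 and 129 (-0.48). Its average of -0.73 (SE 0.03, edgeR adjusted p = 5.58e-20) was close to those of CALR and PDIA3.

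**Figure D3:**
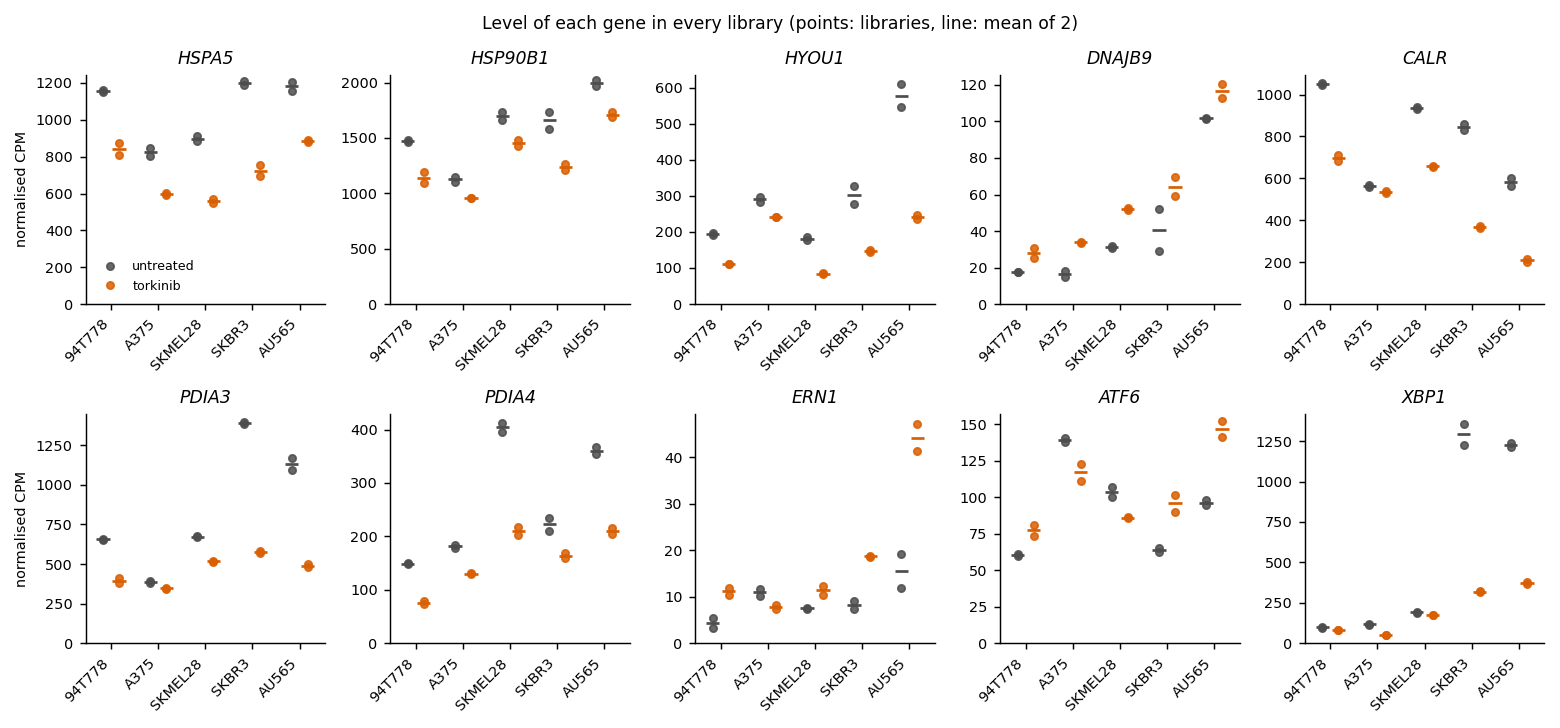
Normalised CPM of each member in each of the 20 libraries, on a linear axis, with the 2 untreated and 2 torkinib libraries of each line as separate points. For every member and line the untreated and torkinib points do not overlap, and XBP1 shows the widest gap, from 1228 and 1353 CPM to 322 and 316 CPM in SKBR3.

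XBP1, the transcription factor whose messenger ERN1 splices, had the largest average change, -1.07 (SE 0.03, edgeR adjusted p = 3.00e-25). SKBR3 went from 1228 and 1353 CPM to 322 and 316, 4.05-fold lower (log2 change -2.02, SE 0.07, edgeR adjusted p = 3.20e-23). AU565 went from 1215 and 1239.7 to 381 and 369.6 (-1.71, edgeR adjusted p = 2.91e-21). A375, where untreated levels were far below those of the breast lines, went from 115 and 121 to 51.3 and 53.3 (-1.18, edgeR adjusted p = 7.77e-14). XBP1 fell in these 3 lines by at least 2.26-fold. In 94T778 101 and 96.6 CPM became 80.4 and 80.7 (-0.29, edgeR adjusted p = 0.00355), a call that was lost when library totals replaced the TMM factors (-0.18, edgeR adjusted p = 0.0735). In SKMEL28 188 and 195 CPM and 172 and 173 gave -0.15 (SE 0.07), not called (edgeR adjusted p = 0.100) although the libraries did not overlap.

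ERN1, the sensor kinase and endonuclease that splices XBP1, was the least abundant member and rose in 4 lines. AU565 went from 19.1 and 11.8 CPM to 41.2 and 47.1, 2.81-fold higher (log2 change 1.49, SE 0.15, edgeR adjusted p = 6.55e-11). 94T778 went from 3.24 and 5.54 to 10.5 and 11.8 (1.34, SE 0.25, edgeR adjusted p = 3.33e-05). SKBR3 went from 8.998 and 7.47 to 18.8 and 18.6 (1.20, edgeR adjusted p = 7.24e-06). Its standard errors were the widest of the set and its counts the lowest. In SKMEL28 7.42 and 7.64 CPM became 10.5 and 12.3 (0.58, edgeR adjusted p = 0.0258). That call was lost without untreated replicate 1 (edgeR adjusted p = 0.0787), untreated replicate 2 (0.119) or torkinib replicate 2 (0.158), and with DESeq2 (adjusted p = 0.0847) and limma-voom (adjusted p = 0.0598). A375 alone had lower values, 10.3 and 11.7 CPM untreated and 7.46 and 8.21 treated (-0.50, SE 0.22), and was not called (edgeR adjusted p = 0.0714). The average was 0.82 (SE 0.10, edgeR adjusted p = 2.27e-09).

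ATF6, the sensor that becomes a transcription factor after cleavage, rose in 3 lines and fell in the pair of melanoma lines. AU565 went from 94.5 and 98.4 CPM to 141 and 153 (0.61, SE 0.08, edgeR adjusted p = 4.59e-08). SKBR3 went from 62.8 and 65.3 to 90.3 and 101 (0.58, edgeR adjusted p = 1.07e-06) and 94T778 from 59.7 and 61.1 to 80.9 and 73.9 (0.36, edgeR adjusted p = 0.00130). In the melanoma lines the direction was the opposite. A375 went from 138 and 141 to 111 and 123 (-0.26, edgeR adjusted p = 0.0105), and SKMEL28 from 101 and 107 to 85.6 and 86.3 (-0.27, edgeR adjusted p = 0.00710). Those falls rested on single libraries: the A375 edgeR adjusted p was 0.0644 without untreated replicate 2, 0.189 without torkinib replicate 1 and 0.0624 with library totals. In SKMEL28 it was 0.123 without untreated replicate 2 and 0.0569 without torkinib replicate 1. With 2 directions among the lines, the average was small, 0.20 (SE 0.04, edgeR adjusted p = 1.79e-05).

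Responses differed between the 5 lines for 9 of the 10 members, beside 68.4% of genes, by edgeR's F test. The smallest adjusted p was that of XBP1 (2.49e-18) and the largest called was that of HSPA5 (0.0123); HSP90B1 was not called (0.218). A375, SKMEL28 and AU565 had the same dose, so their responses were compared directly, in 3 pairs, with each edgeR adjusted p over all genes. A375 and SKMEL28 differed for 5 members, where 28.4% of genes did, A375 and AU565 for 8 (38%), and SKMEL28 and AU565 for 7 (34.8%). The last count was 4 without SKMEL28 untreated replicate 2.

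The log2 response of XBP1 in A375 minus that in SKMEL28, both melanoma lines, was -1.03 (95% interval -1.26 to -0.79). Its response in AU565 was lower than that in SKMEL28 by 1.56 (1.35 to 1.77). ERN1 had responses of -0.50 in A375, not called, and 1.49 in AU565, a difference of -1.99 (A375 minus AU565, -2.53 to -1.45, edgeR adjusted p = 1.53e-07). CALR showed the reverse order, its response being lower in AU565 than in A375 by 1.40 (1.20 to 1.61). The response of PDIA3 was lower in AU565 than in A375 by 1.04 (0.84 to 1.25), and HYOU1 by 1.00 (0.77 to 1.22). For CALR, PDIA3 and HYOU1 the gap between A375 and AU565 was thus about a log2 unit or more, and for XBP1 it was 0.53. That of DNAJB9 was higher in A375 than in AU565 by 0.83 (0.41 to 1.24). HSP90B1 was called in none of the 3 pairs, with differences of -0.0045 (-0.21 to 0.20), -0.01 (-0.22 to 0.20) and -0.0058 (-0.21 to 0.20). For ATF6, A375 minus SKMEL28 was 0.02 (-0.22 to 0.26), an interval that holds differences in both directions.

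**Figure D4:**
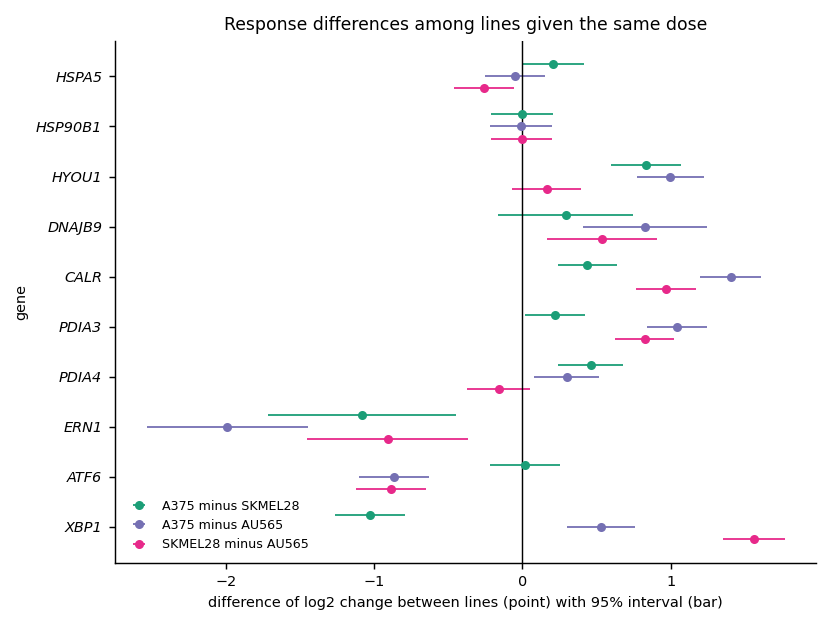
Difference of the log2 response between the 3 pairs of lines given 4 µM, with the 95% interval, 1 point per member and pair. The intervals of HSP90B1 include 0 in each pair, and the points furthest from 0 are ERN1 in A375 against AU565, at -1.99, and XBP1 in SKMEL28 against AU565, at 1.56.

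Before treatment all 10 members differed between lines, as did 96.3% of genes, by edgeR's F test. XBP1 had the widest range, 13.1-fold between SKBR3 and 94T778: SKBR3 and AU565 overlapped, and SKMEL28, A375 and 94T778 followed without overlap. DNAJB9 spanned 6.13-fold, highest in AU565. Untreated SKBR3 and SKMEL28 overlapped for it, as did 94T778 and A375. PDIA3 spanned 3.58-fold from SKBR3 to A375, ERN1 3.52-fold from AU565 to 94T778 and HYOU1 3.19-fold from AU565 to SKMEL28. PDIA4 spanned 2.71-fold from SKMEL28 to 94T778, and ATF6, highest in A375 and lowest in 94T778, 2.31-fold. The neighbouring lines did not overlap for PDIA3, PDIA4 and ATF6. HSPA5 was the most even, at 1.46-fold, followed by HSP90B1 at 1.77-fold and CALR at 1.86-fold.

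Levels of different members were compared per kilobase of merged exon (GENCODE 29, GRCh38), as CPM per kb. In untreated cells CALR was the highest of the set in 94T778 at 551, HSP90B1 in A375 (393), SKMEL28 (593) and AU565 (696), and XBP1 in SKBR3 (633). ERN1 was the lowest in every line, at 0.449 to 1.58 CPM per kb. With torkinib HSP90B1 was the highest in all 5 lines, at 334 to 597 CPM per kb. ERN1 stayed the lowest in every line, at 0.800 to 4.51 CPM per kb.

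The members' levels were also set against each other over the 20 libraries, with each line's mean taken out. These correlations share the treatment of the same libraries and carry no p. CALR and PDIA3 had the highest, at 0.98, followed by HSPA5 and HSP90B1 at 0.95. ERN1 ran opposite to CALR (-0.89) and to PDIA3 (-0.90), and DNAJB9 opposite to HSPA5 (-0.835). ATF6 and ERN1 correlated at 0.79, while ATF6 and DNAJB9 did at only 0.21. All 3 rose in 94T778 and SKBR3, while in A375 DNAJB9 rose and ATF6 fell, and in AU565 ATF6 and ERN1 rose and DNAJB9 was not called. Among 10365 genes with a mean of at least 10 CPM, the patterns most like HSPA5 were those of C3orf75 (0.99), HMGB2 (0.98), DDIT4 (0.98), SAE1 (0.98) and KIF22 (0.98). For XBP1 they included S100A4, PECI, PLCXD1 and RRBP1 (0.98 each), and for ERN1 they were RGL2 (0.95), NBPF14 (0.95), OGT (0.94), TIA1 (0.93) and POGZ (0.93).

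Other genes of the pathway were counted in 6 lists. They are described by how many were called on the average, beside 28.1% of all genes lower and 28.4% higher. The median log2 change is given beside -0.0073 over all genes tested. Shares of all genes called within each line are those given above for the members. Of 23 other ER chaperones and folding enzymes 18 fell and 3 rose (median -0.21). Those with the smallest p were DNAJB11, an HSPA5 cofactor (-0.91), P4HB, the founding protein disulfide isomerase (-0.71), PDIA6 (-0.81) and PPIB, a proline isomerase of the lumen (-0.65). PDIA6, DNAJB11 and P4HB fell in each line, and PPIB in each but A375, where it was not called. Of the 23, 6 fell and 5 rose in A375 (median 0.03), beside 24.3 and 18.5% of all genes. Of 22 genes of the translocon and of glycosylation 19 fell and 2 rose (median -0.43), among them RPN1 (-0.86) and DAD1 (-0.70), subunits of the oligosaccharyltransferase, SSR3 of the translocon-associated complex (-0.69) and SEC61B of the channel (-0.75). In A375 3 of these 22 fell and 6 rose, beside 24.3 and 18.5% of all genes. In AU565 21 fell and 0 rose, beside 28.6 and 26.9%.

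Of 13 other sensors and their partners 4 rose and 5 fell (median -0.02). EIF2AK3, the sensor outside the 10 members, was not called on the average (-0.0066). It was called lower in 94T778 (-0.30) and A375 (-0.39) and higher in SKMEL28 (0.41) and SKBR3 (0.35). In AU565 it was not called (-0.11). TRAF2, an adaptor of ERN1, fell (-0.78), as did NFYB, a subunit of NF-Y (-0.63), while the proteases that cut ATF6, MBTPS1 (0.35) and MBTPS2 (0.61), rose. CREB3L1 had no counts in SKMEL28, which leaves its average without an estimate; without it the median was -0.01. Of 10 genes downstream of EIF2AK3 4 rose and 4 fell (median 0.04), and the lines went apart: 7 rose and 2 fell in AU565 (median 1.41), while 1 rose and 7 fell in A375 (median -0.78). In SKBR3 3 rose and 6 fell (median -0.70), in SKMEL28 3 and 6 (-0.59), and in 94T778 4 and 3 (0.21). ASNS, asparagine synthetase, fell in A375 (-3.38), SKMEL28 (-3.37), 94T778 (-1.42) and SKBR3 (-0.99) and rose in AU565 alone (1.37). CHAC1, which degrades glutathione, did likewise (-5.13, -3.97 and 2.24). TRIB3, a pseudokinase target of ATF4, fell on the average (-1.15), and PPP1R15A, the phosphatase subunit that restores translation, rose (1.05).

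The degradation genes were measured for 17 of 18 symbols, VIMP having no row: 6 rose and 7 fell (median -0.0017). HERPUD1 (-0.57), VCP, the extracting ATPase (-0.46), and EDEM2 (-0.33) fell, and EDEM3, a mannosidase (0.38), rose. Without DERL3, which had no counts in treated A375, the median was 0.002. Of 14 chaperones of the cytosol and mitochondria, which work outside the ER, 8 fell and 3 rose (median -0.16). HSPA4 (-0.66), HSPE1 (-0.54) and BAG3 (-0.63) fell, and HSPA8, the constitutive HSP70, rose on the average (0.49) with -0.87 in 94T778 and 1.37 in A375.

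**Figure D5:**
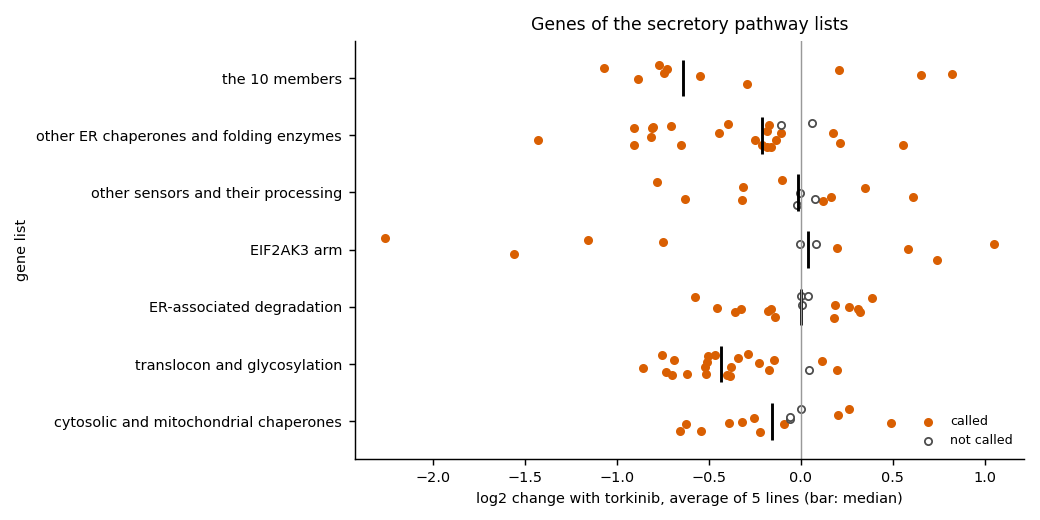
Log2 change on the average of the 5 lines for the 10 members and the genes of the 6 other lists with counts in every group, 1 point per gene, with each list's median. The translocon and glycosylation list has the lowest median of the 6, -0.43, and the median of all genes tested is -0.0073.

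Genes with an element, members included in every count, were counted in the same way. On the average 28.1% of all genes were called lower and 28.4% higher. Of 15 tested symbols whose window holds an ERSE, 4 of them members, 8 fell and 4 rose on the average (median -0.29). The 4 members were all among the 8 that fell, and the median was the value of the member HSP90B1. Outside the members SYNPO (-1.21), CRELD2 (-0.91), PDIA6 (-0.81) and FICD (-0.64) were called lower. CANX, the membrane lectin related to calreticulin (0.18), EIF2A (0.69), SERP1 (0.15) and ZNF17 (0.39) were called higher. Of 14 with an ERSE-II, the member HYOU1 among them, 10 fell and 1 rose (median -0.44). The largest fall was that of SHCBP1 (-3.59), followed by SDF2L1 (-1.43), and the gene that rose was NAV2 (0.45). Of 121 with a UPRE, HYOU1 again among them, 46 fell and 32 rose (median -0.05). In A375 5 of the ERSE genes were higher and 5 lower (median 0.06), beside 18.5 and 24.3% of all genes, and in SKMEL28 5 were higher and 6 lower (median -0.15), beside 20.4 and 23.7%. In 94T778 1 was higher and 8 lower, beside 23.8% of all genes in each direction. In SKBR3 4 were higher and 9 lower, beside 24.6 and 26.7%. In AU565 1 was higher and 11 lower, beside 26.9 and 28.6%. These genes, beyond the members, were named after their values were seen.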

How the data were processed

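Total RNA from 5 cell lines, untreated or with torkinib, was sequenced in 20 libraries. Each deposited file holds 1 library's counts, whole numbers of reads per gene symbol that the authors did not normalise. The submitters' processing notes name the build hg19 (GRCh37) and the tools limma (3.34.9), HTSeq (0.6.1) and HISAT2 (2.04), without their roles. Which gene models and which strand mode the counting used is not stated there, so reads of genes that overlap on opposite strands cannot be told apart. Summary lines of the counter were left out of every total and test; 47.8 to 62.4% of reads were counted in genes.

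Counts were fitted in R 4.3.3 with edgeR 4.0.16 (TMM factors, filterByExpr, 10 group means, 20 libraries, so that all groups shared 1 estimate of the spread). The quasi-likelihood test was adjusted by Benjamini-Hochberg over 16698 genes and called at 0.05; the common biological coefficient of variation was 0.0547. The script was checked on simulated data. Levels are normalised CPM, changes are log2 torkinib over untreated with a standard error, and intervals are 95%. Same-numbered libraries did not deviate together (correlations -0.11 to 0.17), so numbers were not used to pair them. Alternatives were edgeR with relative log expression (RLE) factors, with library totals, with no filter, with a replicate block and on each line alone. DESeq2 (1.42.0) and limma-voom (3.58.1) were also run, and each library was left out in turn.

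The members and lists were chosen with earlier results of these data known. Named genes are all 10 members, the 4 genes of each other list with the smallest p on the average, and for HSPA5, XBP1 and ERN1 the 5 genes of highest Pearson correlation over 20 libraries of log2 CPM (prior count 2) after taking out line means, among genes at 10 CPM or more. For XBP1, 1 of these 5 is not reported here. EIF2AK3, CREB3L1, DERL3, THAP5, ELL3 and genes with a promoter element were named in addition, after their values were seen. Lines were checked against lists of melanocyte, 12q amplicon, breast, blood and endothelial markers, of which PECAM1 had no row. Promoters are RefSeq windows on GRCh38.p14 and exon lengths GENCODE 29; no coordinates were joined to the counts.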

Additional observations from a re-analysis of the deposited data

Results flagged for a closer look

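Each result here was drawn out because the response to torkinib differed between lines by a test of the difference itself. By edgeR's F test over the 5 lines, whose doses also differ, the adjusted p was 0.0123 for HSPA5, 3.61e-14 for CALR, 1.46e-12 for PDIA3, 4.15e-05 for PDIA4 and 2.49e-18 for XBP1. It was 1.69e-09 for ATF6, 8.08e-07 for ERN1, 0.0053 for DNAJB9 and 8.71e-09 for HYOU1 (edgeR adjusted p).

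Among the lines given 4 µM, the log2 response in A375 minus that in SKMEL28 was 0.44 for CALR, 0.46 for PDIA4, -1.03 for XBP1, -1.08 for ERN1 and 0.83 for HYOU1. A375 minus AU565 was 1.40 for CALR, 1.04 for PDIA3, 0.30 for PDIA4 and 0.53 for XBP1. It was -0.87 for ATF6, -1.99 for ERN1, 0.83 for DNAJB9 and 1.00 for HYOU1. SKMEL28 minus AU565 was -0.26 for HSPA5, 0.97 for CALR, 0.82 for PDIA3, 1.56 for XBP1, -0.89 for ATF6, -0.91 for ERN1 and 0.53 for DNAJB9. The HSPA5 difference lost its call when any 1 of the 8 SKMEL28 and AU565 libraries was left out, and without the filter on low counts. That of PDIA4 in A375 minus AU565 lost its call without certain single libraries, and ranged from 0.26 to 0.35. So did those of ERN1 (-1.32 to -0.62) and DNAJB9 (0.50 to 0.59) in SKMEL28 minus AU565. DNAJB9 was not called there with DESeq2 either (adjusted p = 0.111).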

How the results depend on the processing

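On the average of the 5 lines all 10 members kept their direction and their call under every alternative run. Counts of called members stayed within 1.5 times the main count with 1 exception: of the 7 members that differed between SKMEL28 and AU565, 4 to 6 did when 1 library was left out, the lowest without SKMEL28 untreated replicate 2. Calls within a line reversed in no alternative; those lost or gained most often were HSP90B1, ATF6 and ERN1 in the lines given 4 µM, and XBP1 in SKMEL28 (edgeR adjusted p = 0.0254) and DNAJB9 in AU565 (0.00238) were called when each line was fitted alone.

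Differences between lines that changed sign were those nearest to 0, and none was called. HSP90B1 in A375 minus SKMEL28 was 0.006382 with RLE factors, 0.09038 with library totals and 0.004942 with DESeq2. It ranged from -0.04284 to 0.02395 with 1 library left out. In A375 minus AU565 it was 0.03549 with library totals, 0.014 without the filter and -0.03607 to 0.02458 with 1 library left out. In SKMEL28 minus AU565 it was 0.06575 without the filter and -0.02971 to 0.03789 with 1 library left out. ATF6 in A375 minus SKMEL28 was -0.02788 without the filter and -0.05384 to 0.09 with 1 library left out. The cause was not tested.

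The replicate block changed the call of no member: with it 94T778 and SKBR3 kept 10 called members, SKMEL28 and AU565 had 9, A375 had 7, and over all genes the count on the average went from 9428 to 9455. Crossing the numbers in 94T778, added after its same-numbered libraries were seen to deviate at -0.11, gave 8114 calls there in place of 7938. Library totals in place of the TMM factors moved 68 of 100 group levels by more than 1 SD of their 2 libraries. Depth limits ERN1 most, with as few as 3.24 CPM in a library.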
